A study of Bos taurus with 12 samples.

Results

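Endothelial cells line the inside of all blood vessels, and the marker genes PECAM1, CDH5, KDR, VWF, FLT1, TEK, TIE1 and ENG were followed here as a reading of vessel content in fat. All probe sets whose annotation gave exactly 1 gene symbol, and that symbol one of these 8 genes, were taken, which gave 14 of the 24016 probe sets on the array that are not controls. Of the 14, 9 were bright enough to be tested, among 16811 tested in all. The 9 stood for 7 of the 8 genes, since both probe sets of VWF were too dim.

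Fat of Japanese Black (JB) steers and of Holstein (HS) steers, all on an energy-rich feeding regimen, was profiled on an Affymetrix bovine array. Japanese Black is a beef breed known for marbled meat, and Holstein is a dairy breed. The 4 groups were JB intramuscular fat (IMF), HS IMF, JB subcutaneous fat (SCF) and HS SCF, each with 3 samples. IMF samples carry the numbers 1 to 3 and SCF samples 4 to 6. All groups shared the diet, and the labels give no age. Whether a group's samples are different animals, and whether one animal gave both depots, is not stated. The p-values therefore rest on the scatter of these 12 samples alone, part of which may be technical. The fits treat IMF and SCF samples as independent. If one animal gave both depots, this pairing was not used, and the depot p-values could differ with it.

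Endothelial cells take up growth signals through a few receptors of their own. KDR and FLT1 are receptors for the vascular endothelial growth factors, with KDR carrying most of the growth signal and FLT1 also acting as a decoy that binds the ligand away from KDR. TEK, also called TIE2, is the receptor of the angiopoietins, which steady or loosen the vessel wall, and TIE1 is its partner. CDH5 (VE-cadherin) and PECAM1 (CD31) hold neighbouring endothelial cells together, ENG (endoglin) is a co-receptor for BMP ligands, and VWF is the clotting protein stored in endothelial granules. In fat, the capillary wall passes lipids and hormones between blood and adipocytes, and muscle is likewise dense in capillaries.

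The arrays were alike in brightness, with median deposited signals of 77.5 to 88.6, except HS IMF 3 at 58.8. The ratio of the GAPDH 3' to 5' control probe sets, a sign of RNA quality, was 4.06 in HS SCF 5 and between 1.19 and 2.40 in the other samples. In the subcutaneous samples JB SCF 6 and HS SCF 5, the mean log2 level of 13 skeletal muscle markers was 8.89 and 8.93, against 6.17 to 6.58 in the other 4. These 3 samples are named again in some of the results below. With 3 arrays per group, the number of arrays limits the precision. HS arrays also correlated less with the others of their group than JB arrays did. The mean r was 0.8616 to 0.8979 in HS IMF and 0.919 to 0.9438 in HS SCF, against 0.9635 to 0.9745 in JB. The fits use a common spread of each probe set for all groups.

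The first question was whether the markers differed between IMF and SCF over both breeds. No endothelial marker probe set passed the threshold, a Benjamini-Hochberg adjusted p below 0.05 in limma over all probe sets tested: 0 of 9 passed, where 11% of all tested probe sets did (4.66% higher and 6.33% lower in IMF). At an unadjusted p below 0.05 there were 2 of 9, FLT1 and TEK, where 27.2% of all probe sets reached it. Over the 7 genes, each read by its brightest probe set, the median difference of IMF minus SCF was 0.0023 log2 units, against -0.06 over all tested probe sets. Under the 24 other settings this median ran from -0.16 to 0.29 and kept its sign in 13. In bulk tissue, fewer cells of a type and less RNA per cell cannot be told apart.

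**Figure D1:**
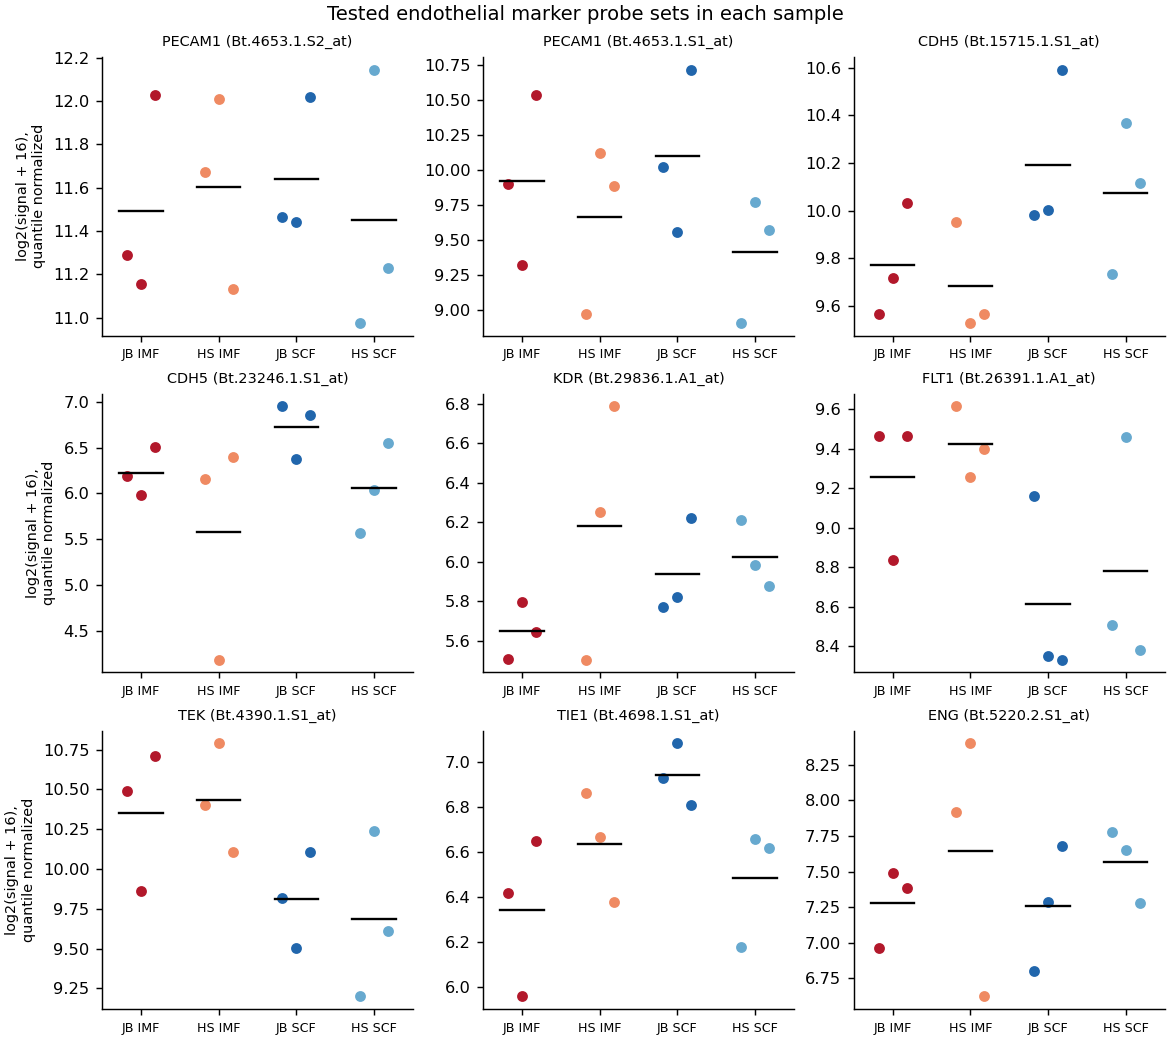
Normalized log2(signal + 16) of the 9 tested endothelial marker probe sets (vertical axes, each with its own range) in the 12 samples, by group; points are samples and black lines are group means (n = 3). FLT1 and TEK have higher group means in both IMF groups, and TIE1 in JB IMF lies below JB SCF without overlap, while in the other panels IMF and SCF overlap within each breed.

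TEK, the angiopoietin receptor, had deposited signals of 635 to 1795 with a median of 1439 in the 6 IMF samples, against 561 to 1235 with a median of 906 in the 6 SCF samples. By group the signals were 1564, 955 and 1795 in JB IMF, 1314, 1653 and 635 in HS IMF, 1010, 802 and 1149 in JB SCF, and 561, 1235 and 803 in HS SCF. The depots overlapped: HS IMF 3 had the lowest deposited signal of the IMF samples, and HS SCF 5 was the highest SCF sample. After normalization JB IMF 2 was the lowest IMF sample, at 9.86 log2 units against 10.11 in HS IMF 3. On the normalized scale TEK was 0.65 ± 0.23 log2 units higher in IMF (SE; 95% interval 0.14 to 1.15), a 1.57-fold difference that did not pass (adjusted p = 0.0969 in limma). Without both HS IMF 3 and HS SCF 5 the difference was 0.86 and passed, with an adjusted p of 0.0393 in limma. Leaving out the highest SCF sample raises the difference in itself, and TEK passed under only this 1 of 24 other settings. The difference was 0.55 ± 0.33 in JB (adjusted p = 0.546) and 0.75 ± 0.33 in HS (adjusted p = 0.214), both by limma with SE.

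FLT1, the decoy VEGF receptor, was read by 3 probe sets, of which only 1 was bright. Its signals were 371 to 779 with a median of 654 in IMF, against 326 to 745 with a median of 345 in SCF. By group they were 749, 454 and 768 in JB IMF, 779, 560 and 371 in HS IMF, 635, 352 and 326 in JB SCF, and 339, 745 and 329 in HS SCF. In SCF, JB SCF 4 and HS SCF 5 lay well above the other 4 samples, which fell within a narrow band of low signals. FLT1 was 0.64 ± 0.24 log2 units higher in IMF (SE; 95% interval 0.12 to 1.16), and did not pass (adjusted p = 0.109 in limma). The depot difference was 0.64 in JB and 0.64 in HS, and the interaction of breed and depot, that is JB minus HS in IMF less JB minus HS in SCF, was 0.0013 ± 0.48. Without HS SCF 5 the difference over both breeds was 0.81 with an adjusted p of 0.0456 in limma, which passes. HS SCF 5 was the highest SCF sample, so leaving it out raises the difference in itself. FLT1 passed under only this 1 of 24 other settings.

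The other 2 FLT1 probe sets had signals between 0.09 and 20.3 in all 12 samples and were not tested. They give no second reading of the depot difference.

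KDR, the main VEGF receptor, was near the lower bound of what could be tested. Its brighter probe set had signals of 28.8 to 65.4 with a median of 37.2 in IMF, against 39.6 to 61.6 with a median of 46.8 in SCF, where the filter on dim probe sets lay at a signal of about 33.4. The depot difference was -0.06 ± 0.21 log2 units (SE; 95% interval -0.53 to 0.40; adjusted p = 0.877 in limma). The second KDR probe set, at 0.01 to 22.3, was too dim to be tested.

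TIE1, the orphan partner of TEK, had signals of 47.6 to 101 with a median of 76.0 in IMF, against 56.2 to 134 with a median of 95.3 in SCF. In JB the groups did not overlap, with 71.5, 47.6 and 89.9 in JB IMF against 115, 134 and 101 in JB SCF. In HS they overlapped, with 101, 80.4 and 50.2 in HS IMF against 56.2, 89.2 and 85.4 in HS SCF. In JB the difference was -0.60 ± 0.25 log2 units (SE; 95% interval -1.15 to -0.05; adjusted p = 0.319 in limma), and in HS it was 0.15 ± 0.25 (adjusted p = 0.751 in limma). The interaction was -0.75 ± 0.36 (SE; 95% interval -1.52 to 0.03; adjusted p = 0.99 in limma), so a breed-dependent depot difference of TIE1 was not established. Over both breeds the depot difference was -0.22 ± 0.18 (adjusted p = 0.454 in limma).

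PECAM1, the junction and adhesion molecule most often used to count vessels, showed the smallest depot difference over both breeds of the 9 tested probe sets. Its brighter probe set gave 2649, 2309 and 4221 in JB IMF, 2982, 3722 and 1548 in HS IMF, 3153, 3131 and 4216 in JB SCF, and 1962, 4181 and 2571 in HS SCF. In each depot the samples spread over more than the distance between the group means, and the highest samples of the depots were nearly equal. The difference over both breeds was 0.0023 ± 0.26 log2 units (SE; adjusted p = 0.996 in limma), with a 95% interval of -0.56 to 0.56. The second probe set ran from 502 to 1604 in IMF, against 453 to 1765 in SCF, and differed by 0.03 ± 0.30 (adjusted p = 0.957 in limma). Depot differences up to these bounds are not excluded by either probe set.

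CDH5, the cadherin of endothelial junctions, was lower on average in IMF through both probe sets, and passed through neither. The brighter one gave 812, 856 and 1140 in JB IMF, 977, 670 and 420 in HS IMF, 1134, 1126 and 1620 in JB SCF, and 822, 1343 and 1161 in HS SCF. The depots overlapped, with JB IMF 3 the highest of the IMF samples and HS SCF 4 the lowest of the SCF samples. The muscle-rich JB SCF 6 and HS SCF 5 were the highest SCF samples, and HS IMF 3 had the lowest deposited signal. The difference was -0.40 ± 0.19 log2 units (SE; 95% interval -0.81 to 0.0047; adjusted p = 0.189 in limma), and was close to this in JB (-0.42) and in HS (-0.39). The dimmer probe set ran from 1.25 to 79.3 in IMF, against 31.0 to 117 in SCF, and differed by -0.49 ± 0.35 (adjusted p = 0.4 in limma). Its lowest value, 1.25, was in HS IMF 2.

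ENG, the BMP co-receptor, ran from 59.0 to 289 with a median of 166 in IMF, against 103 to 201 with a median of 177 in SCF. HS IMF samples held both the highest and the lowest of the 12, with 234, 289 and 59.0. The depot difference was 0.05 ± 0.29 log2 units (SE; 95% interval -0.58 to 0.68; adjusted p = 0.932 in limma). VWF, the clotting protein, had signals of 4.30 to 20.6 in IMF, against 4.70 to 17.7 in SCF, over its 2 probe sets, and neither was tested. A depot or breed difference of VWF was therefore not measurable with these probe sets.

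**Figure D2:**
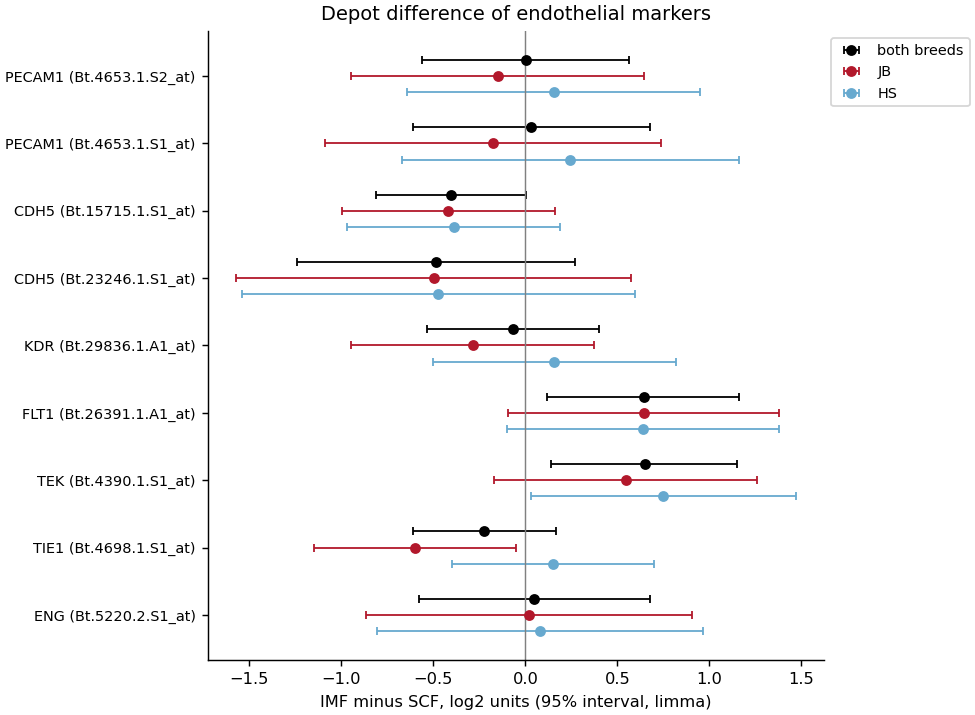
Depot difference, IMF minus SCF, in log2 units (horizontal axis) for each tested endothelial marker probe set, over both breeds (black), in JB (red) and in HS (blue); bars are 95% intervals from limma, unadjusted. Over both breeds the intervals of FLT1 and TEK lie above 0, but their adjusted p-values of 0.109 and 0.0969 do not pass, and all other intervals over both breeds include 0.

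Within the breeds, 0 of 9 probe sets passed in limma in JB, where 3.07% of all tested probe sets passed, and 0 of 9 in HS, where 3.32% did. At an unadjusted p below 0.05 there was 1 in JB, TIE1, where 13.3% of all probe sets reached it, and 1 in HS, TEK, where 21.4% did. The JB samples of TIE1 were also without overlap, which held for 16.2% of all probe sets lower in IMF of that breed.

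The second question was whether the breeds differed within a depot. In IMF, 0 of 9 endothelial marker probe sets passed in limma for JB minus HS, where 0.0238% of all probe sets did (4 of 16811), and none reached an unadjusted p below 0.05, where 10.2% did. In SCF, 0 of 9 passed, where 0.00595% did (1 of 16811), and none reached an unadjusted p below 0.05, where 3.56% did. For the interaction, 0 of 9 passed, where 0% of all probe sets did, and none reached an unadjusted p below 0.05, where 2.14% did. The depot difference of the markers was thus not distinguishable between the breeds with 3 samples per group.

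KDR had the largest negative breed difference in IMF of the 9 probe sets. Its signals were 29.7, 41.0 and 33.4 in JB IMF, against 28.8, 58.3 and 65.4 in HS IMF. HS IMF 1 was as low as the JB samples, and the difference was -0.53 ± 0.30 log2 units (SE; adjusted p = 0.526 in limma). FLT1 differed by -0.17 ± 0.34 in IMF and by -0.17 ± 0.34 in SCF.

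TIE1 in SCF was the only tested marker whose breeds did not overlap within a depot, with 115, 134 and 101 in JB SCF, against 56.2, 89.2 and 85.4 in HS SCF. The difference was 0.45 ± 0.25 log2 units (SE; 95% interval -0.09 to 1.00; adjusted p = 1 in limma), and 5.81% of all probe sets were higher in JB without overlap. TEK differed between the breeds by -0.08 ± 0.33 in IMF and by 0.12 ± 0.33 in SCF.

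No junction probe set passed between the breeds, and 7 of their 8 breed differences were positive. The 8 come from PECAM1 and CDH5 alone, each counted through both probe sets in both depots, and are not independent. Of all tested probe sets 57.8% were positive in IMF and 50.4% in SCF. The brighter PECAM1 probe set differed by -0.11 ± 0.37 in IMF and by 0.19 ± 0.37 in SCF, and the brighter CDH5 probe set by 0.09 ± 0.27 in IMF and 0.12 ± 0.27 in SCF. The dimmer CDH5 probe set differed by 0.65 ± 0.49 in IMF and by 0.67 ± 0.49 in SCF. The second PECAM1 probe set differed by 0.26 ± 0.42 in IMF and by 0.68 ± 0.42 in SCF, where the signals were 1162, 834 and 1765 in JB SCF, against 453, 910 and 780 in HS SCF (adjusted p = 1 in limma). ENG differed by -0.37 ± 0.41 in IMF and by -0.31 ± 0.41 in SCF.

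**Figure D3:**
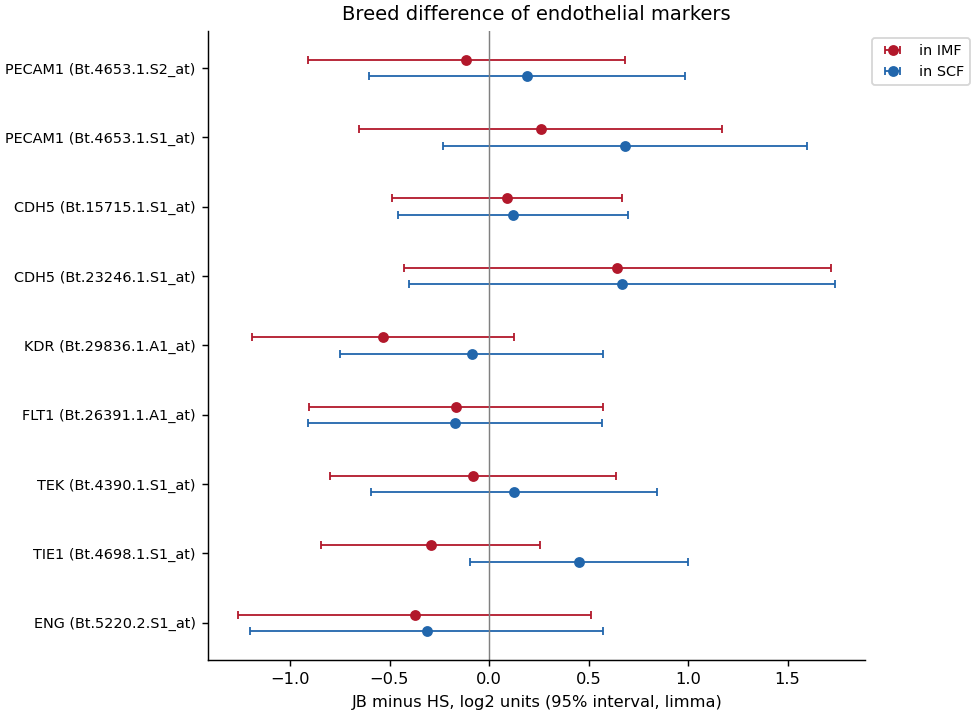
Breed difference, JB minus HS, in log2 units (horizontal axis) for each tested endothelial marker probe set, in IMF (red) and in SCF (blue); bars are 95% intervals from limma, unadjusted. Every interval includes 0, and TIE1 lies at -0.29 in IMF and at 0.45 in SCF.

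Over the 7 genes, the breed difference in IMF was negative for 6, with a median of -0.17 against 0.10 over all tested probe sets, and the interaction was negative for 6, with a median of -0.20 against 0.05. These counts depended on the scaling. With the values as deposited, in which the median of all probe sets for the breed difference in IMF stood at 0.38, only 3 of 7 were negative in IMF and 3 of 7 for the interaction. In SCF 3 of 7 were negative.

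The members were next read as one level, the mean of the 7 genes' log2 values. Over both breeds the depot differences it averages went both ways, with 4 genes positive and 3 negative. Opposite shifts of single genes can therefore cancel in it. The mean was 8.70 ± 0.23 in IMF and 8.60 ± 0.22 in SCF (SD, n = 6 each). By group it was 8.59 ± 0.23 in JB IMF, 8.80 ± 0.21 in HS IMF, 8.63 ± 0.17 in JB SCF and 8.58 ± 0.30 in HS SCF (SD, n = 3 each). The 4 groups overlapped throughout, and neighbours in this order did not differ beyond their spread. In SCF the highest values were those of HS SCF 5 (8.93) and JB SCF 6 (8.82), against 8.37 to 8.56 in the other 4. These are the 2 SCF samples with the most skeletal muscle marker signal. In IMF the highest value was that of HS IMF 2 (8.99), which had the lowest mean skeletal muscle level of the IMF samples (12.02). The part of muscle tissue in the endothelial level was not tested.

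Skeletal muscle and macrophage markers differed strongly between the depots. Of 13 skeletal muscle markers, 10 passed as higher in IMF and none as lower, with a median difference of 6.61 log2 units. The mean level of the 13 was 12.02 to 13.03 in the IMF samples, against 6.17 to 8.93 in the SCF samples. Their summed signal was 58485 to 133139 in IMF, against 4886 to 24459 in SCF, so the samples labelled as intramuscular fat carried strong muscle fibre signal. Of 10 macrophage and monocyte markers, 9 passed as lower in IMF, with a median of -2.17 log2 units, and the summed signal of these and the too dim ITGAM was 1971 to 6187 in IMF, against 10345 to 29528 in SCF. Of 7 adipocyte markers, all were negative with a median of -0.83, and none passed. An unadjusted p below 0.05 in limma was reached by 5 of the 7, where 27.2% of all probe sets reached it. Mean levels of the adipocyte markers were 10.23 to 12.18 in IMF, against 12.01 to 12.39 in SCF. Of 7 fibroblast markers, all were negative with a median of -0.64, and 1 passed as lower, PDGFRA at -0.73 ± 0.21 (adjusted p = 0.0455 in limma), while a second PDGFRA probe set gave 0.36 (adjusted p = 0.262). Their mean level was 11.33 to 11.99 in IMF, against 11.89 to 12.77 in SCF. Of 4 lymphocyte markers, 1 passed as lower, JCHAIN of plasma cells at -2.29 ± 0.54 (adjusted p = 0.0185 in limma), and their mean level was 6.39 to 7.28 in IMF, against 6.67 to 8.28 in SCF. Adipocyte markers were in every sample of both depots. The part of these shifts in the endothelial values was not tested.

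The vessel wall also holds smooth muscle cells and pericytes, which wrap around the endothelial tube. Of 10 such markers, 7 passed as higher in IMF, among them MYH11, the smooth muscle myosin heavy chain, at 3.73 ± 0.40 log2 units, CNN1 at 3.72 ± 0.33 and ACTA2 at 2.91 ± 0.29 (SE). CNN1 and ACTA2 code for calponin and smooth muscle actin. ACTA2 had signals of 4957 to 15655 with a median of 9415 in IMF, against 725 to 3448 with a median of 1252 in SCF, without overlap. The pericyte receptor PDGFRB did not pass at -0.81 ± 0.27 (adjusted p = 0.0779), nor did MCAM, which endothelial cells also carry, at -0.62 ± 0.19 (adjusted p = 0.0513), both by limma. RGS5, a pericyte gene, was 1.73 ± 0.60 (adjusted p = 0.086) over both breeds, with 88.6 to 5349 in IMF and 191 to 665 in SCF. It passed in JB, at 3.65 ± 0.85 (adjusted p = 0.0387), and not in HS, at -0.19 ± 0.85 (adjusted p = 0.92), all by limma, with an interaction of 3.84 ± 1.20 (adjusted p = 0.99). CSPG4, a pericyte surface proteoglycan, passed at 1.29 ± 0.27 through its brightest probe set (adjusted p = 0.0106 in limma) and not through a second, at 0.57 (adjusted p = 0.284). The summed signal of the 10 genes was 14090 to 63718 in IMF, against 8461 to 15161 in SCF.

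**Figure D4:**
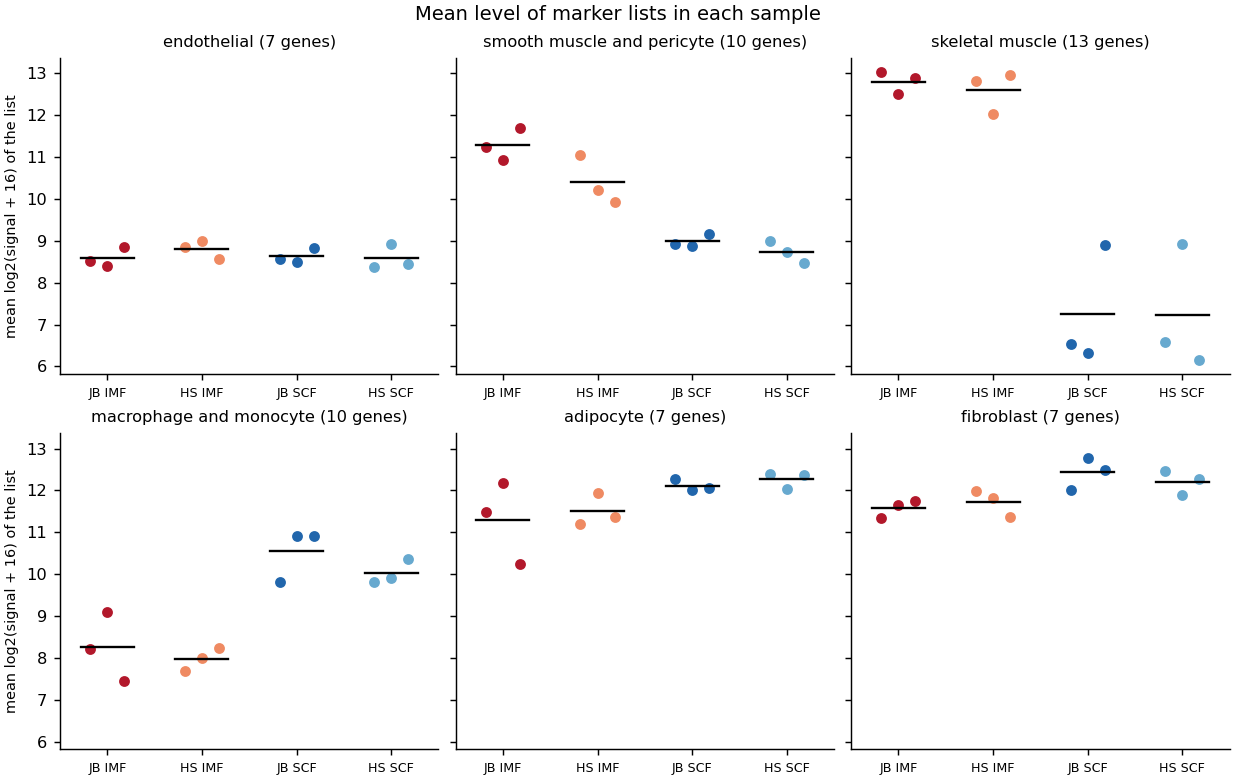
Mean log2(signal + 16) (vertical axis, shared) of 6 marker lists in the 12 samples by group; points are samples and black lines are group means (n = 3). The endothelial list lies between 8.37 and 8.99 in all samples, as a mean of genes whose depot differences went both ways. Skeletal muscle and smooth muscle markers are higher in IMF and macrophage markers are lower in IMF.

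Markers of blood cells were read as a check on blood left in the samples. Of 5 erythroid markers none passed between the depots, and their mean log2 level was 6.13 to 8.06 in IMF, against 6.27 to 7.08 in SCF. The value of 8.06 was that of HS IMF 3, the array with the lowest median signal. Its summed deposited erythroid signal, with the too dim SLC4A1, was 824, against 798 in HS IMF 1 and 964 in HS SCF 4. Of 3 platelet markers none passed, and their mean was 6.55 to 7.13 in IMF, against 6.53 to 7.16 in SCF. Platelets also carry PECAM1 and VWF, and the part of blood in these values was not tested.

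Other genes of the vessel were taken from 7 lists with 88 genes, chosen with earlier results of these data known. Of these, 60 were tested, 1 was too dim (FLT4, the receptor of lymphatic vessels) and 27 had no annotated probe set with a single symbol. Between the depots 8 of the 60 passed, 3 higher and 5 lower in IMF, or 13.3%. Of all probe sets 11% passed, 4.66% as higher and 6.33% as lower. The count was 2 when both muscle-rich samples, JB SCF 6 and HS SCF 5, were left out, and it was 5 without JB IMF 1 and also 5 without JB SCF 5.

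The 3 higher genes were NOS3, AQP1 and ETS2. NOS3, the endothelial nitric oxide synthase that relaxes vessels, gave 91.6, 90.3 and 120 in JB IMF, 116, 166 and 51.7 in HS IMF, 74.3, 67.2 and 45.4 in JB SCF, and 16.1, 33.6 and 39.4 in HS SCF. Only HS IMF 3 fell within the range of the SCF samples. The HS SCF signals lay near or below the filter on dim probe sets, at a signal of about 33.4. NOS3 was 1.08 ± 0.23 log2 units higher in IMF (SE; adjusted p = 0.011 in limma). It passed in HS, at 1.57 ± 0.32 (adjusted p = 0.0226), and not in JB, at 0.58 ± 0.32 (adjusted p = 0.489), with an interaction of -0.98 ± 0.45 (adjusted p = 0.99), all by limma. AQP1, a water channel of capillary endothelium and of red cells, was 1.56 ± 0.38 higher (adjusted p = 0.0232), but did not pass through its second tested probe set, at 0.93 (adjusted p = 0.109). ETS2, a transcription factor, was 1.01 ± 0.22 higher through its brightest probe set (adjusted p = 0.0117) and -0.22 (adjusted p = 0.527) through another, so its probe sets disagreed.

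The 5 lower genes included SELE and VCAM1, 2 of the adhesion molecules by which activated endothelium catches leukocytes. ICAM1 and SELP, which have the same role, were -0.78 ± 0.27 log2 units (adjusted p = 0.0877) and -0.29 ± 0.22 (adjusted p = 0.43) in limma and did not pass. SELE (E-selectin) gave 35.3, 39.9 and 81.8 in JB IMF, 36.9, 147 and 22.0 in HS IMF, 4492, 7051 and 8802 in JB SCF, and 1697, 45.2 and 28.4 in HS SCF. All JB SCF samples and a single HS SCF sample were bright. The depot difference was -3.85 ± 0.77 log2 units over both breeds (SE; adjusted p = 0.00823 in limma), and -6.53 ± 1.09 in JB (adjusted p = 0.00571) and -1.17 ± 1.09 in HS (adjusted p = 0.545). VCAM1, another leukocyte adhesion molecule, was -1.66 ± 0.43 (adjusted p = 0.0297), with signals of 85.0 to 485 in IMF, against 370 to 1759 in SCF.

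ANGPTL4, a secreted inhibitor of lipoprotein lipase that adipocytes also make, was -1.68 ± 0.31 log2 units (SE; adjusted p = 0.00557 in limma), with 239 to 588 in IMF, against 461 to 2214 in SCF. ROBO4, an endothelial guidance receptor that steadies the vessel, was -0.91 ± 0.21 (adjusted p = 0.0178), with 174 to 578 in IMF, against 496 to 910 in SCF. CD34, which marks endothelium and also stromal progenitors of fat, was -0.67 ± 0.20 (adjusted p = 0.0472), with 403 to 1024 in IMF, against 1046 to 1647 in SCF. The deposited CD34 signals did not overlap, but on the normalized scale HS IMF 2 lay above 2 of the SCF samples. The fibroblast list, which holds stromal genes, was also negative for 7 of 7 genes, and its part in the CD34 difference was not tested. CD34 passed under 10 of 24 other settings, and VCAM1 under 14 of 24.

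**Figure D5:**
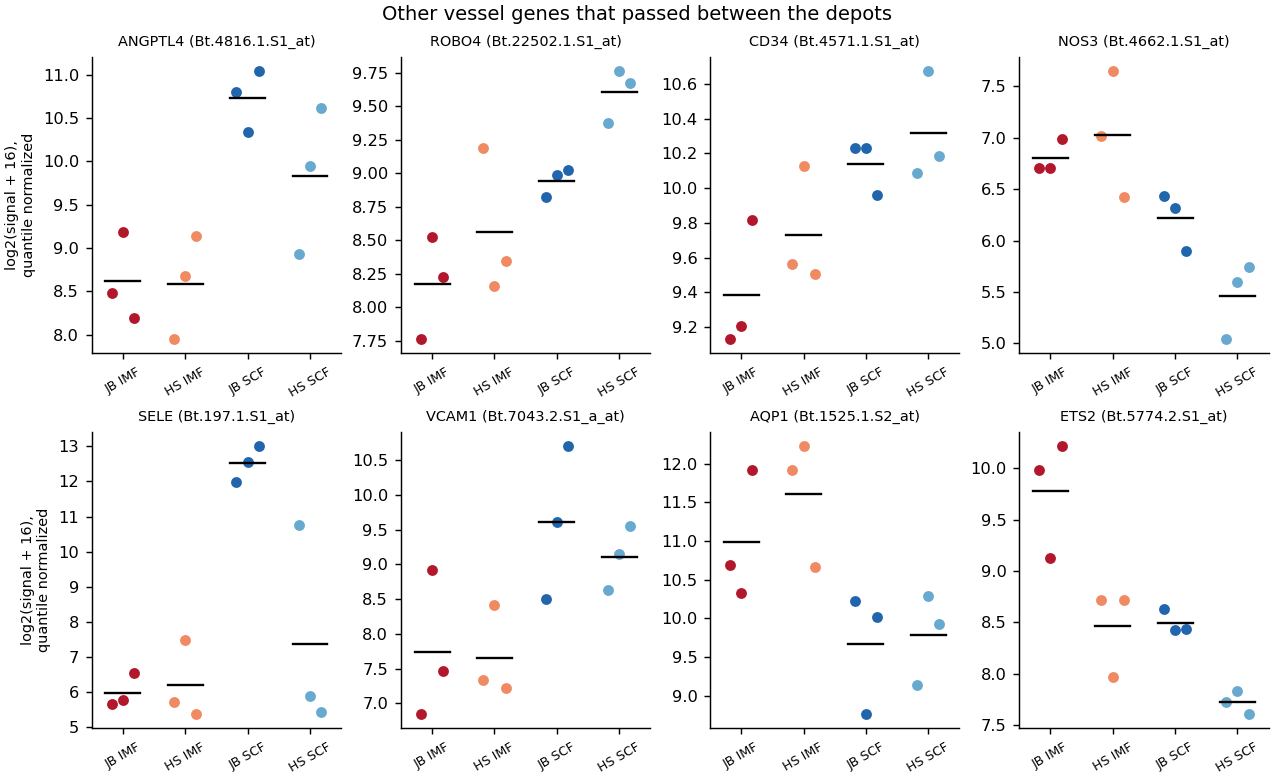
Normalized log2(signal + 16) (vertical axes, each with its own range) of the 8 other vessel genes that passed between the depots, by group; points are samples and black lines are group means (n = 3). NOS3, AQP1 and ETS2 are higher in IMF on average, and ANGPTL4, ROBO4, CD34, SELE and VCAM1 are lower, with SELE bright in all JB SCF samples and in HS SCF 4.

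By role, most of the vessel genes that passed between the depots were in the junction and surface list. Of all tested probe sets 11% passed, 4.66% as higher and 6.33% as lower in IMF. Of 13 tested angiogenic ligands, receptors and co-receptors, 0 passed as higher and 1 (ANGPTL4) as lower, with a median of 0.04 log2 units against -0.06 over all probe sets. Of 17 junction and surface genes, 2 passed as higher (NOS3 and AQP1) and 4 as lower (SELE, VCAM1, ROBO4 and CD34), with a median of -0.18. Of 10 endothelial transcription factors, 1 passed as higher (ETS2), with a median of -0.37. None passed among 4 Notch and ephrin genes, 7 BMP and endoglin partners, 6 haemostasis partners and 3 lymphatic genes, with medians of 0.0008, -0.11, -0.56 and -0.86.

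Between the breeds and for the interaction, 0 of the 60 vessel genes passed in limma. In the junction and surface list the breed difference in IMF was negative for 15 of 17 genes, with a median of -0.33 against 0.10 over all probe sets. The interaction was negative for 16 of 17, with a median of -0.40 against 0.05. With the values as deposited these were 9 and 10 of 17, so the split depended on the scaling.

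The markers were also compared with one another within the groups, as deviations of the 12 samples from their group means. Over 34 pairs of probe sets of different genes, 23 correlations were positive, and they ran from -0.686 to 0.915 with a median of 0.23. The highest was that of PECAM1 and TEK, the lowest that of the dimmer CDH5 probe set and ENG, and KDR with TIE1 stood at -0.674. The 2 PECAM1 probe sets correlated at 0.641 and the 2 CDH5 probe sets at 0.393. The values share the arrays and their normalization, so these correlations are a description.

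The same deviations were compared between the members' mean and 7808 genes. The 5 genes outside the list with the highest Pearson r over the 12 samples were TBC1D8 at 0.933, FAM118A at 0.914, MAPK1IP1L at 0.906, TCIM at 0.905 and TTR at 0.887. Among the members, PECAM1 stood at 0.994, TEK at 0.932, CDH5 at 0.713, TIE1 at 0.581, ENG at 0.519, FLT1 at 0.492 and KDR at -0.188, each being part of the mean it was set against. KDR, the dimmest tested marker gene, was the only one with a negative correlation. None of the 5 outside genes passed between the depots, with TBC1D8 at -0.54 ± 0.20 log2 units (adjusted p = 0.108 in limma).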

How the data were processed

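Total RNA of 12 fat samples (3 per group of breed and depot) was labelled with biotin and hybridized to an Affymetrix bovine array, per the labels' protocols. GCOS 1.1.1 and Affymetrix Expression Console 1.1 are named in the submitters' processing notes. How the signals were summarized and normalized is not given in the sources used here. In the deposited table, 24128 probe sets carry linear intensity values, called signals, 2303 of them 0.

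From these, log2(signal + 16) was quantile normalized, 112 control probe sets were dropped, and the 30% dimmest of the other 24016 were left out, so that 16811 were tested. A single gene symbol was given for 13292 of the 24016, several for 86 and none for 10638. They were updated through Entrez identifiers of RefSeq, assembly ARS-UCD2.0 (13283 of 13318 matched).

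Models with 4 group means (8 residual and 4.05 prior degrees of freedom) were fitted with limma 3.58.1 in R 4.3.3 (jsonlite 2.0.0), with Benjamini-Hochberg adjustment over all tested probe sets, at a threshold of 0.05. The procedure was tested on simulated data. Figures used Python 3.11.15, matplotlib 3.10.9, numpy 2.4.6 and pandas 2.3.3. No 2 samples held identical values.

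All members were named, every vessel gene that passed between the depots, in other lists at most 4 genes chosen by smallest p, and the 5 genes most like the members' mean. A gene was read by its brightest probe set unless another is named. PDGFRB, MCAM, RGS5, CSPG4 and FLT4 were named after their values were seen. The members and lists were chosen with earlier results of these data known. Other settings were other filters, scalings, pseudocounts, variance models, array weights, 1 probe set per gene, only the compared groups, a replicate block and samples left out. Sequences and genome positions are not used here.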

Additional observations from a re-analysis of the deposited data

Results flagged for a closer look

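In the dimmer CDH5 probe set, HS IMF 2 stood apart from the other 5 IMF samples, with a signal of 1.25 against 48.6 to 79.3. The gap to the nearest sample was 0.772 of the whole range on the normalized log2 scale, past Dixon's 95% bound for 6 samples. It was 1 of 18 depot groups of the 9 tested probe sets, and chance flags about 1 in 20. The brighter CDH5 probe set gave a deposited signal of 670 in HS IMF 2, between the other HS IMF samples at 977 and 420. On the normalized log2 scale HS IMF 2 was the lowest of all samples in this probe set too, at 9.53. It was close to HS IMF 3 at 9.57 there.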

How the results depend on the processing

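The 8 other vessel genes called between the depots over both breeds kept their direction under every setting in which they were tested; calls within a breed and of other cell type markers were not recomputed gene by gene. Leaving out each sample in turn, the number of endothelial marker probe sets that passed between the depots was 0 to 1 (FLT1, without HS SCF 5), and it was 1 (TEK) without both HS IMF 3 and HS SCF 5. With array weights it was 3 for the depot difference in JB (FLT1 0.87, TEK 0.74 and TIE1 -0.56 log2 units), where 4340 probe sets passed in all, against 516 with equal weights. The 8 other vessel genes became 13 with array weights and 2 with JB SCF 6 and HS SCF 5 left out together, a choice made after seeing the data, and 5 to 10 with each sample left out. The causes were not tested. Over all settings the depot difference was 0.47 to 0.87 for TEK (adjusted p 0.0393 to 0.307, limma) and 0.45 to 0.82 for FLT1 (adjusted p 0.0456 to 0.325, limma). Over both breeds, 800 to 3154 probe sets passed under the other settings, against 1848. The median difference of the marker genes moved beyond the spread between replicates in 6 instances over all comparisons and settings. Same-numbered samples of the breeds did not vary together (correlations of -0.278 to 0.117), so the numbers were not taken as pairs across the breeds. Pairs of an IMF and an SCF sample within a breed were not examined. With a replicate block 0 marker probe sets passed in either breed comparison and for the interaction, and 2 rather than 4 of all probe sets passed in IMF. Dim probe sets of VWF and KDR limit what can be measured.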
